A study of Rattus norvegicus with 6 samples.

Results

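Glycogen is the branched glucose polymer in which animal cells store sugar, and the genes described here encode the enzymes that build it and take it apart. They are Pgm1, Ugp2, Gyg1, Gys1, Gbe1, Ppp1r3c, Pygm, Pygb and Pygl. A gene entered when the array annotation gave its symbol, and no other, to a probe set. On that rule 8 of the 9 genes were measured, by 11 probe sets, out of 14217 genes named in this way on the array. No probe set carried the symbol Ppp1r3c alone, and this regulator, which tethers protein phosphatase to glycogen, is not analysed here. The genes were picked from a re-examination of the same diet comparison in which Gys1 had already been seen to read low, so their differences between the diets are given as descriptions. A count of these genes past a threshold is printed only beside the share of all probe sets past it, and nothing is read from it.

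The tissue was mesenterial adipose tissue, the fat along the vessels of the gut, from newborn wildtype Sprague-Dawley rats, an outbred laboratory strain. The dams of the adequate group received a diet with 1000 IU of vitamin D per kg (3 arrays), and the dams of the deficient group one with 0 IU per kg (3 arrays). Litter, sex and pooling are not in the labels, nor whether each array is its own animal, so the spread between arrays may be partly technical. The question put by the design is what the mother's vitamin D supply changes in the fat of her newborns. Values are MAS5 signals in intensity units, scaled to a common level per array, and only 3 arrays per group limit the precision of every value.

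Glycogen synthesis starts from glucose 6-phosphate. Pgm1 converts it to glucose 1-phosphate, Ugp2 activates that to UDP-glucose, glycogenin (Gyg1) primes a chain, glycogen synthase (Gys1) lengthens it and the branching enzyme (Gbe1) adds branch points. Glycogen phosphorylase releases glucose 1-phosphate again, and its isozymes are known as the muscle (Pygm), brain (Pygb) and liver (Pygl) forms. In fat cells insulin activates glycogen synthase, and glycogen turnover is thought to accompany the filling and emptying of fat stores.

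In technical controls, the first 2 deficient arrays differed from the remaining 4 arrays. Bacterial hybridisation controls, spiked in fixed amounts, read 7.06 and 9.94 times the adequate mean on them and 0.942 times on deficient array 3. The 3' over 5' ratio of beta-actin, which rises when RNA is degraded or labelling is incomplete, read 7.56 and 6.80 there. It read 2.35 on deficient array 3, and adequate arrays 1, 2 and 3 had 2.39, 4.81 and 2.58. For this reason the log2 change with deficient array 3 alone set against the adequate arrays is given beside that of the genes. Of 7 white adipocyte markers, Fabp4 (1581 to 2821 units) and Lpl (960 to 1826) were bright. Adipoq (11.1 to 47.8), Plin1, Cidec, Lep and Pparg lay under the brightness filter, a mean signal of 88.2 units over all arrays. The same held for all 4 brown adipocyte markers. Smooth muscle markers were bright, with Myh11 between 14781 and 33213 units.

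By each gene's brightest probe set, only 1 of the 8, glycogen synthase, read lower on every deficient array than on any adequate array. Of all tested probe sets 10.8% were separated in this way, so nothing is read from the count. Gys1 had a fold of 0.503, while for the enzymes before and after it in the pathway the groups overlapped. Of the 8 genes, all of which had a probe set above the brightness filter, 5 had a lower mean in the deficient group and 3 a higher one, a median log2 change of -0.24. Over all 18625 tested probe sets 55.3% were lower and the median was -0.05. None of the 8 passed an adjusted p of 0.05 with limma, and neither did any other probe set (0%). Without deficient array 3, 2 of the 8 passed it, Gys1 and Ugp2, where 19.4% of all tested probe sets did. With limma's array weights 3 of the 8 passed it, Pgm1, Gys1 and Gbe1, where 18.6% did. The calls without deficient array 3 rest on the pair of deficient arrays with the distinct technical controls. The array-weight calls of Pgm1 and Gbe1 are no separate support. Their log2 changes with array weights, -0.65 and 0.59, were near those without deficient array 3, -0.57 and 0.56. With deficient array 3 alone they were 0.08 and 0.04. At an unadjusted p under 0.05 limma gave 2647 probe sets, 1524 lower (8.18%) and 1123 higher (6.03%). The median of the 8 on each array, relative to the adequate mean, was 0.11, -0.17 and 0.00 in the adequate group. In the deficient group this median was 0.02, -0.43 and -0.10, with overlap.

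**Figure D1:**
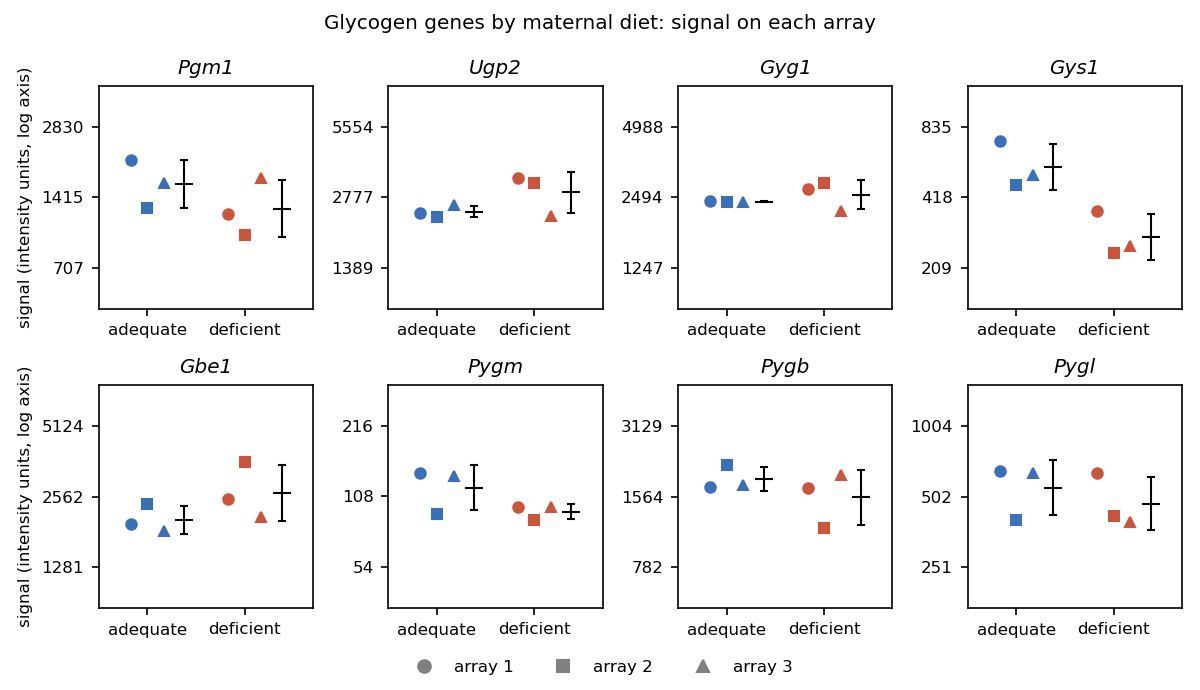
Signal in intensity units (log axis) of the brightest probe set of each of the 8 glycogen genes on each array, with the geometric mean and 1 SD of the log2 values (n = 3) as bars. Gys1 is the panel in which the deficient arrays, at 240.1 to 365.8 units, all lie under the adequate arrays, at 469.5 to 726.7.

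Gys1, the glycogen synthase of muscle and most tissues other than liver, is measured by 1 probe set. Its signal was 726.7, 469.5 and 521.9 units on adequate arrays 1, 2 and 3, and 365.8, 240.1 and 258.5 units on deficient arrays 1, 2 and 3. The highest deficient array thus lay under the lowest adequate array. Such separation towards lower values was seen in 10.8% of all tested probe sets, and since it belongs to the contrast by which Gys1 was noticed, nothing further is read from it. The log2 signal was 9.14 ± 0.33 (SD, n = 3) in the adequate group and 8.15 ± 0.32 (SD, n = 3) in the deficient group, a log2 change of -0.99 ± 0.24 (SE) and a fold of 0.503. Deficient array 3, whose technical controls resembled those of the adequate arrays, read 1.12 log2 units below the adequate mean, a change of -1.12, and deficient arrays 1 and 2 had -0.62 and -1.23. The 5 smooth muscle markers, all measured, summed to 44572 to 54712 units in the adequate group. In the deficient group they summed to 77272, 78477 and 56089 units on arrays 1, 2 and 3, also without overlap, and 0 of the 5 passed limma's adjusted threshold. Among them Myh11, Tagln and Cnn1 had log2 changes of 0.69, 0.62 and 0.33 without overlap, while Acta2 (0.00) and Des (-0.30) overlapped. With deficient array 3 alone Myh11, Tagln and Cnn1 had 0.15, 0.10 and 0.27, and Acta2 and Des had 0.23 and 0.07. The share of all tested probe sets separated towards higher values is not given here, so nothing is read from these separations. The 7 white adipocyte markers summed to 3708 to 3897 units in the adequate and 2863 to 4762 in the deficient group. Most of that sum came from Fabp4 and Lpl, since the other markers lay under the brightness filter. The 5 macrophage markers summed to 7025 to 8806 units in the adequate and 6434 to 7607 in the deficient group. Of 4 nerve and glia markers 2 were measured, at 2096 to 2197 and 1654 to 2139 units in sum. The part of these cells in the Gys1 difference was not tested. In bulk tissue, fewer cells that express the gene and less RNA per cell cannot be told apart.

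The liver form of glycogen synthase, Gys2, was close to background in this tissue. It read 2.1, 19.1 and 30.1 units with the adequate diet, and 29.7, 16.5 and 29.6 units with the deficient diet, under the filter on every array, so no fold is given. Of both glycogen synthase genes, Gys1 was the one above the filter.

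For both enzymes that supply UDP-glucose the diet groups overlapped. Pgm1, phosphoglucomutase, has a pair of probe sets. The brighter read 2043, 1271 and 1634 units with the adequate diet, and 1205, 979.9 and 1714 units with the deficient diet, a log2 change of -0.36 ± 0.24 (SE). Deficient arrays 1 and 2 were the lowest of the 6, but deficient array 3 was higher than 2 of the 3 adequate arrays. The dimmer probe set read 497.7, 390.2 and 576.6 units and 396.7, 212.7 and 347.9 units, a log2 change of -0.64 ± 0.26, and on it deficient array 3 was low as well. The probe sets thus disagreed on array 3 alone, with log2 differences of 0.08 and -0.47 from the adequate mean.

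Ugp2, which makes UDP-glucose, had 2381, 2298 and 2564 units with the adequate diet, and 3356, 3194 and 2321 units with the deficient diet. The pair of technically distinct deficient arrays was high and deficient array 3 lay within the adequate range. The log2 change was 0.28 ± 0.17 (SE), a fold of 1.21, and -0.06 on deficient array 3 alone.

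Gyg1, the self-glucosylating primer, was the steadiest of the genes in the adequate group, at 2414, 2380 and 2380 units (log2 SD 0.01). The deficient arrays had 2695, 2859 and 2176 units. Both directions occurred within the deficient group, and the log2 change was 0.10 ± 0.15 (SE), a fold of 1.07, with -0.14 on deficient array 3 alone.

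Gbe1, which cuts and rejoins chain ends to make branches, had the largest change towards higher values among the 8 genes. Its signal was 1949, 2374 and 1823 units with the adequate diet, and 2504, 3601 and 2089 units with the deficient diet. The groups overlapped, since deficient array 3 was under adequate array 2. The log2 change was 0.39 ± 0.21 (SE), a fold of 1.31. It was 0.43 without deficient array 1, 0.17 without deficient array 2 and 0.04 with deficient array 3 alone, so its size rests on deficient array 2. Adequate array 2, which had the highest actin ratio of its group, was also the highest adequate array for Gbe1 and Pygb. It was the lowest adequate array for Pgm1, Ugp2, Gys1, Pygm and Pygl, and for Gyg1 it was level with adequate array 3. The part of RNA quality in these differences was not tested.

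**Figure D2:**
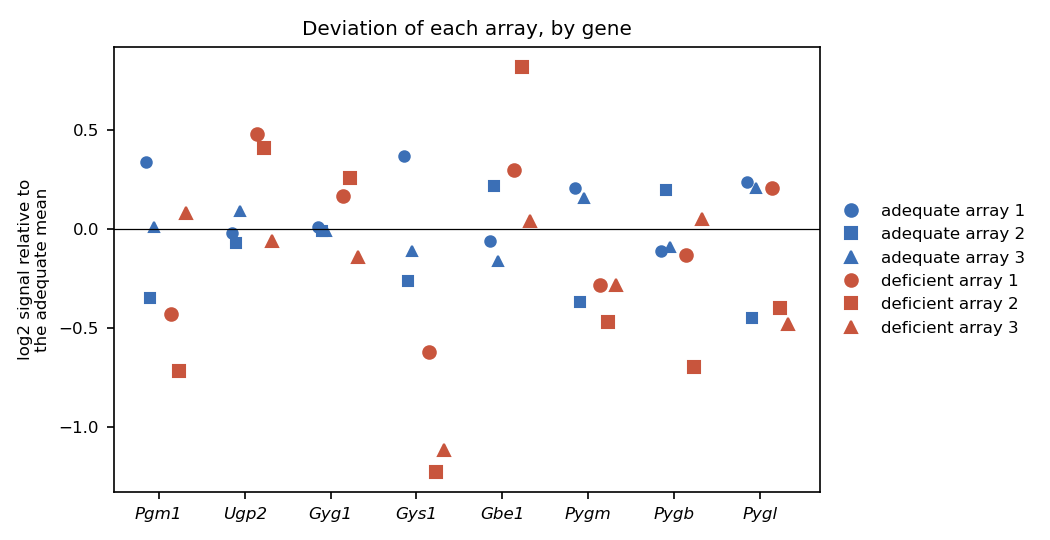
Log2 signal of each array relative to the mean of the adequate arrays, for the brightest probe set of each gene, with marker shape giving the array number. Deficient array 3 (red triangles) lies at -1.12 for Gys1 but between -0.14 and 0.08 for Pgm1, Ugp2, Gyg1, Gbe1 and Pygb.

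A difference between genes on the same array does not depend on how that array was scaled. Gbe1 minus Gys1, set to 0 at the adequate mean, was -0.43, 0.48 and -0.05 log2 units with the adequate diet, and 0.92, 2.05 and 1.16 with the deficient diet. The deficient mean was 1.38 ± 0.60 (SD, n = 3). For Ugp2 minus Gys1 the deficient arrays had 1.10, 1.63 and 1.07, against -0.39 to 0.20 on the adequate arrays. For Gyg1 minus Gys1 they had 0.79, 1.49 and 0.99, against -0.36 to 0.25. Pygb minus Gys1 was 0.49, 0.52 and 1.17 on the deficient arrays and 0.46 on adequate array 2. Each of these pairs subtracts Gys1, whose low signal was known when the genes were chosen, so that the groups lie apart is no separate result. On deficient array 3 the differences restate the -1.12 of Gys1, since Gbe1, Ugp2, Gyg1 and Pygb had 0.04, -0.06, -0.14 and 0.05 there. In a pair without Gys1, Ugp2 minus Pgm1, the deficient arrays had 0.90, 1.13 and -0.14 against -0.35, 0.28 and 0.08, with overlap.

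**Figure D3:**
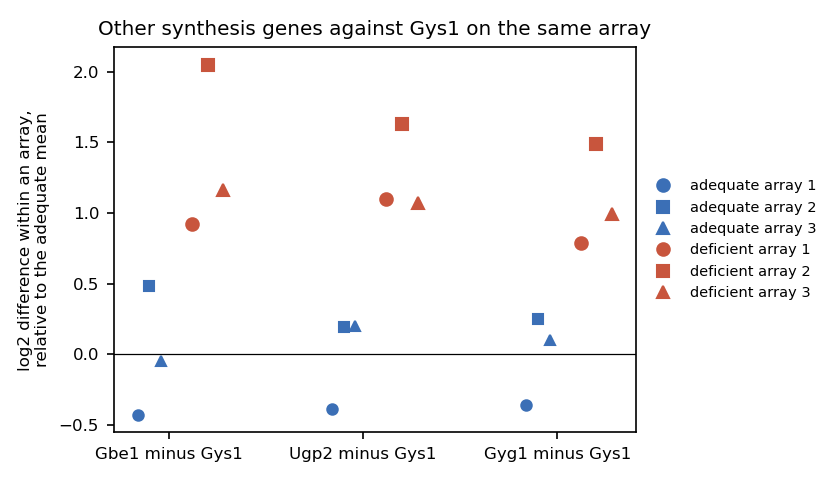
Log2 difference between Gbe1, Ugp2 or Gyg1 and Gys1 on the same array, relative to the adequate mean, with 3 arrays per diet. Every deficient array lies at 0.79 or more and every adequate array at 0.48 or less, in pairs that all share the Gys1 signal.

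The promoters of Gys1, which had the largest change towards lower values, of Gbe1, with the largest towards higher values, and of Gyg1, with the smallest change, are shown side by side. Each run is the 250 bases before the RefSeq transcription start in the GRCr8 assembly, written in the direction of the gene, with the hypoxia response core ACGTG or GCGTG, on either strand, in capitals. Gys1 lies on the plus strand (chr1:105051666-105051915), Gbe1 on the plus strand (chr11:22181026-22181275) and Gyg1 on the minus strand (chr2:104582778-104583027).
Gys1: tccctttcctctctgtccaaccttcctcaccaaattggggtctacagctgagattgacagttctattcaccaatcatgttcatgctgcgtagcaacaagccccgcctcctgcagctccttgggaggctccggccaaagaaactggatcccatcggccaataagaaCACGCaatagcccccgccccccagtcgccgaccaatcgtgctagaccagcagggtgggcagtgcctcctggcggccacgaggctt
Gbe1: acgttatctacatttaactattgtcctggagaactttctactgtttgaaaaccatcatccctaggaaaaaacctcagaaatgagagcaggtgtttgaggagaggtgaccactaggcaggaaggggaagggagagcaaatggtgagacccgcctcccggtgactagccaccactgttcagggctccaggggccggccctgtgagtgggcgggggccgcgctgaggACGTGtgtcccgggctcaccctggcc
Gyg1: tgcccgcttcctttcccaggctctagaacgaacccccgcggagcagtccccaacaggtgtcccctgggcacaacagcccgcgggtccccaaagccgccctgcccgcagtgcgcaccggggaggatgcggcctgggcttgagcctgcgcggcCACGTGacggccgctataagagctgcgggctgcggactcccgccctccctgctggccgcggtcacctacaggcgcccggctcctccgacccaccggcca
In Gys1 the match is a GCGTG on the opposite strand, 85 to 81 bases before the start. In Gbe1 it is an ACGTG on the gene's strand, 26 to 22 bases before the start, and in Gyg1 an ACGTG on each strand, overlapping in a palindrome. The window of each of the 8 measured genes held at least 1 match, whichever way its signal differed. The same was true of 37.9% of 27457 promoters and of 56.9% of the 8812 that belong to genes tested here. The vitamin D receptor element DR3, a direct repeat of the receptor's half-site, was searched on both strands as well. It was in 0 of the 8 windows and in 26 of the 27457 promoters (0.0947%). A match or its absence describes only the letters of these windows.

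The phosphorylases had log2 changes between -0.34 and -0.23, with overlap between the diets for each. Pygm, the muscle form, was dim. Its brightest probe set read 136.5, 91.1 and 131.8 units with the adequate diet, and 97.4, 85.3 and 97.2 units with the deficient diet, a log2 change of -0.34 ± 0.26 (SE), with -0.28 on deficient array 3 alone. All deficient arrays lay under adequate arrays 1 and 3, but adequate array 2 lay among them. Both other Pygm probe sets were under the filter and disagreed in direction, with mean log2 signals of 4.99 and 5.43 for one, and 4.65 and 3.33 for the other, in the adequate and deficient groups. The value for Pygm therefore rests on a single dim probe set. Skeletal muscle markers were present, since 5 of the 7 measured markers passed the filter, with Ckm, the muscle creatine kinase, at 548 to 855 units. Their summed signal was 1645 to 1853 units in the adequate and 1651 to 1695 in the deficient group, and 0 of the 5 passed limma's adjusted threshold.

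Pygb, the brain form, had 1721, 2141 and 1752 units with the adequate diet, and 1699, 1143 and 1931 units with the deficient diet. Only deficient array 2 was clearly low. The log2 change was -0.26 ± 0.21 (SE), with -0.70 on deficient array 2 and 0.05 on deficient array 3, and it was -0.04 without deficient array 2.

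Pygl, the liver form, which white blood cells also express, had 644.4, 400.1 and 634.4 units with the adequate diet, and 630.8, 414.7 and 391.1 units with the deficient diet. Each group held both high and low arrays, and the log2 change was -0.23 ± 0.25 (SE), with -0.48 on deficient array 3 alone. The summed neutrophil markers (4 of 6 measured) were 2233 to 2301 units in the adequate and 1872 to 2330 in the deficient group. They were lowest on deficient array 3, where Pygl was lowest too. On deficient array 2 they were highest, at 2330 units, while Pygl was low, at 414.7 units. The hepatocyte markers, all 7 measured, summed to 5586 units on adequate array 3 and to between 1127 and 2580 units on the other arrays. Pygl was at 634.4 units on that array, within the range of the other arrays. The part of these cells in the Pygl signal was not tested.

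The other genes of glycogen metabolism were split between both directions. Of 26 listed genes 21 were measured and 16 tested, with 7 lower, 9 higher and a median log2 change of 0.06, and with deficient array 3 alone 7 were lower, with a median of 0.04. None passed limma's adjusted threshold in either direction, and at an unadjusted p under 0.05 there was 1, Stbd1, which anchors glycogen to membranes for delivery to lysosomes. Over all tested probe sets 8.18% were lower at that p. Stbd1 read 664.8, 520.3 and 523.1 units with the adequate diet, and 484.3, 229.2 and 350.6 units with the deficient diet. It was lower on all deficient arrays, as 10.8% of tested probe sets were, with a log2 change of -0.74 ± 0.26 (SE), an adjusted p of 0.344 with limma, and -0.69 on deficient array 3 alone. The lysosomal glucosidase Gaa had -0.37 ± 0.22, but deficient array 3, at 743.8 units, was the highest of all arrays (0.10 against the adequate mean).

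The genes that switch synthase and phosphorylase on and off also did not pass. The kinases that phosphorylate and inhibit glycogen synthase, Gsk3a and Gsk3b, had log2 changes of 0.49 ± 0.26 and 0.35 ± 0.21 (SE), with limma's adjusted p of 0.377 and 0.436. On deficient array 3 alone these were 0.24 and 0.48. Among phosphorylase kinase subunits, Phkb had -0.19 ± 0.23 and the catalytic Phkg2 -0.43 ± 0.22, with -0.59 and 0.07 on deficient array 3 alone. The glycogen-targeting subunit Ppp1r3d had 0.39 ± 0.19, and 0.48 on that array. The phosphatase catalytic subunit Ppp1cb read 5954, 6716 and 6141 units with the adequate diet, and 12045, 12283 and 5485 units with the deficient diet, so arrays 1 and 2 were about double and array 3 was the lowest of all. Without deficient array 3, 4 of the 16 genes passed limma's adjusted threshold, where 19.4% of all tested probe sets did: Ppp1cb and Ppp1cc were higher, and Phkg2 and Gaa lower. Those 4 calls rest on the pair of arrays with the distinct technical controls.

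**Figure D4:**
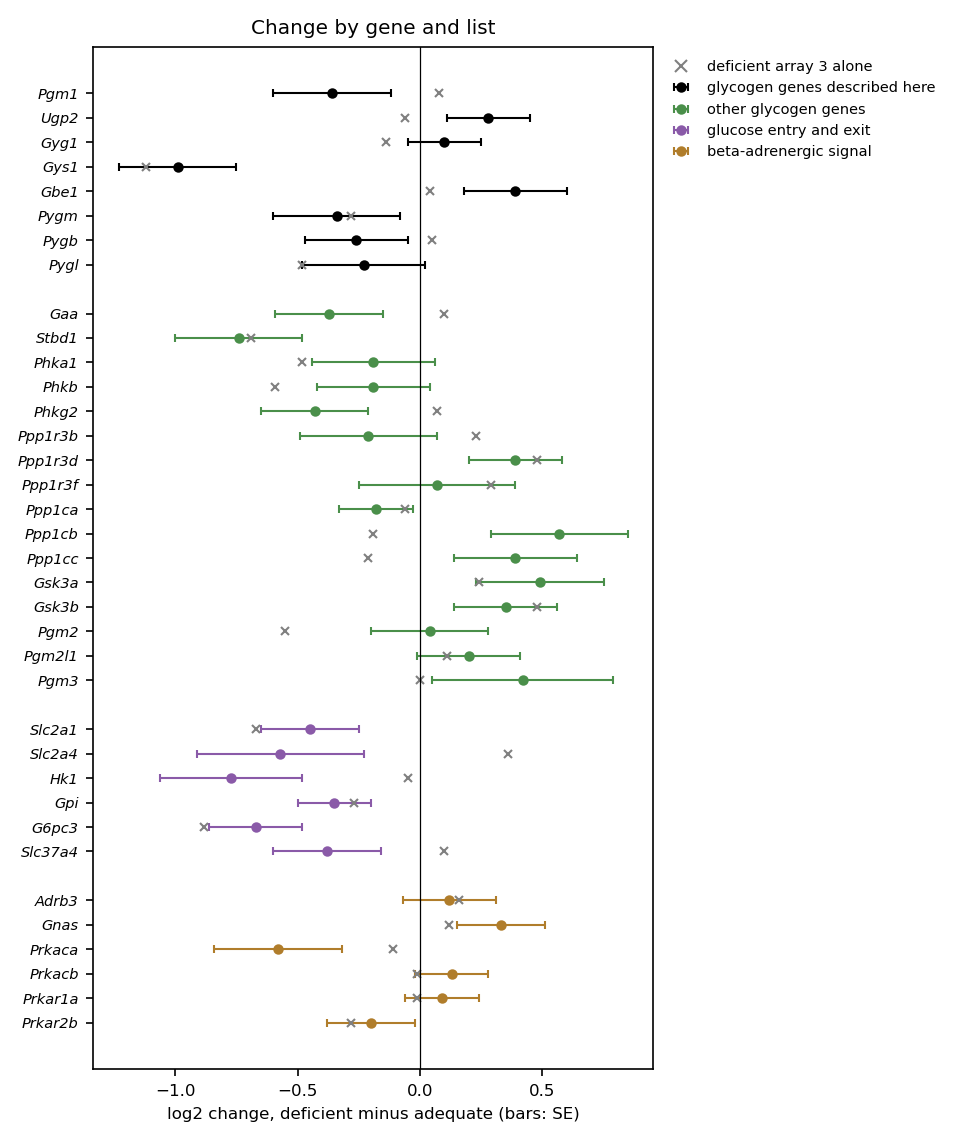
Log2 change between the diets (points, with SE as bars, n = 3 arrays per group) for the 8 glycogen genes and the tested genes of 3 related lists, with deficient array 3 alone against the adequate arrays as grey crosses. For Gys1, Stbd1 and G6pc3 the cross lies near the point, at -1.12, -0.69 and -0.88, while for Hk1 and Ppp1cb it lies at -0.05 and -0.19, away from the point.

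Genes that bring glucose into the cell, trap it and release it were lower in 6 of 6 tested cases, of 7 measured and 10 listed, with a median log2 change of -0.51, where 55.3% of all tested probe sets were lower, and 0 passed limma's adjusted threshold. With deficient array 3 alone 4 of the 6 were lower, with a median of -0.16, where 49.7% of all were. Slc2a4, the insulin-responsive glucose transporter, had 0.36 on that array by its brightest probe set but -0.36 by its other tested probe set. The glucose 6-phosphate transporter Slc37a4 had 0.10 there. At an unadjusted p under 0.05 there were 4 of the 6, all lower, against 8.18% of all tested probe sets. G6pc3, a glucose-6-phosphatase found in most tissues, had the smallest p of the list. It read 491.4, 488.8 and 567.3 units with the adequate diet, and 375.2, 325.8 and 279.3 units with the deficient diet, with no overlap, a log2 change of -0.67 ± 0.19 (SE) and limma's adjusted p of 0.344. It was -0.88 on deficient array 3 alone. Gpi, which interconverts glucose and fructose 6-phosphate, had -0.35 ± 0.15 without overlap, and -0.27 on that array. The glucose transporter Slc2a1 had -0.45 ± 0.20, and -0.67 on deficient array 3 alone. Its groups were narrowly apart, with the highest deficient array at 374.8 units and the lowest adequate array at 375.5. Separation towards lower values, as for G6pc3, Gpi and Slc2a1, was seen in 10.8% of all tested probe sets. Hexokinase Hk1, which makes the glucose 6-phosphate that Pgm1 uses, had -0.77 ± 0.29, but -0.05 on deficient array 3 alone.

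Beta-adrenergic signalling, the route by which nerves and adrenaline trigger glycogen breakdown, had 2 lower and 4 higher of 6 tested genes, a median of 0.11 (-0.01 with deficient array 3 alone, 4 lower) and no gene past limma's adjusted threshold. At an unadjusted p under 0.05 there was 1, Prkaca, the catalytic subunit of protein kinase A, with a log2 change of -0.58 ± 0.26 (SE) and -0.11 on deficient array 3 alone. Gnas, the stimulatory G protein, had 0.33 ± 0.18, and Prkar2b, a regulatory subunit, -0.20 ± 0.18, with 0.12 and -0.28 on that array.

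Among all tested probe sets with 1 gene, those closest to Gys1 were ranked by the root mean square difference of their log2 signals relative to the adequate mean over the 6 arrays. The closest were mrpl24, a mitochondrial ribosomal protein gene, at 0.146 log2 units, Fbxl22, an F-box protein gene, at 0.169, and Ccdc163 at 0.173. The other 7 glycogen genes lay farther away. Pygm was closest at 0.503, rank 1378 of 13871 probe sets, and Gbe1 farthest at 1.07, rank 12508. These distances include the low deficient signals of Gys1, which were known when the genes were chosen. The ranking is therefore no separate result.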

How the data were processed

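The authors deposited linear signal intensities of 6 Affymetrix rat arrays, made from total RNA with a biotin label. They used MAS5 and the Affymetrix Expression Console, per the submitters' processing notes. Versions, detection calls and background settings: not given in the sources used here. As computed here, the 2% trimmed mean was 500 on each array and median signals were 155 to 166, so differences in total RNA are not seen. In log2, dim MAS5 values scatter widely.

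Of 31099 probe sets, 57 controls were set aside. The other 31042 were log2 transformed without an offset, and 18625 with a mean at or above the 40th percentile (6.46 in log2) were tested. The annotation gives 1 gene to 20826 probe sets, several to 436 and none to 9780. The 8 measured genes matched the GRCr8 gene table and promoter table by Entrez identifier, and sequences are from RefSeq. Deficient minus adequate was fitted over all tested probe sets with limma 3.58.1 in R 4.3.3 (variance trend, two-sided, Benjamini-Hochberg at 0.05). Each gene is represented by its brightest tested probe set, and folds are omitted where a group mean lies under the filter. The fit was tested on simulated data with known changes. At the adjusted threshold it recovered 39% of simulated log2 changes of 1 and 87% of those of 2. A change of the smaller size can thus often fail to pass. Named genes were the 9 genes, and from each related list the 3 smallest unadjusted p plus fixed genes of glycogen metabolism (Gys2, Gaa, Phkb, Gsk3a and Gsk3b; another is not reported here). Phkg2, Ppp1cc, Slc2a1, Slc2a4 and Slc37a4 are named because of their values. The genes, lists, tests and alternatives were chosen with earlier results of these data known. The promoter motifs were chosen after the files were read. Figures were drawn with matplotlib 3.10.9.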

Additional observations from a re-analysis of the deposited data

How the results depend on the processing

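Gys1 had a lower mean in the deficient group under all 19 alternatives, with log2 changes from -1.18 to -0.81. Not all of these could move the estimate. Other filters, other eBayes settings, the replicate block and the mean of its only probe set left it at -0.99, so the tallies overstate the agreement. Pygl (-0.48 to -0.10) and Gbe1 (0.01 to 0.59) kept their direction under all 19, and Pygm (-0.53 to -0.23) under the 18 that kept its probe set. Pgm1, Ugp2, Gyg1 and Pygb each kept it under 16, and had the opposite sign in 3 fits: deficient array 3 alone, deficient arrays 1 and 2 marked by a term, and hybridisation controls as a covariate. The fit with the term gives the same changes as deficient array 3 alone and is no separate estimate. With deficient array 3 alone 5 genes were lower, as with all arrays, but 3 were shared. The count of tested probe sets past the adjusted threshold, 0, became 3462 with array weights and ranged from 0 to 3614 when 1 array was left out, the high value without deficient array 3. Of the 8 genes themselves 3 passed with array weights (Pgm1, Gys1 and Gbe1) and 2 without deficient array 3 (Gys1 and Ugp2). Calls without deficient array 3 rest on the pair of deficient arrays with the distinct technical controls. The array-weight calls of Pgm1 and Gbe1 are no separate support, since their changes were near those without deficient array 3. The other glycogen genes past the adjusted threshold, 0, became 5 with array weights and 0 to 4 when 1 array was left out. With the replicate number as a block, 0 probe sets passed. Same-numbered arrays correlated in their deviations at 0.107, 0.153 and 0.00655, so the numbers were not taken as pairs. With 3 arrays per group and no detection calls, differences of dim probe sets such as those of Pygm cannot be resolved.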
